A study of Mus musculus with 4 samples.

Results

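Among short-term hematopoietic stem cells (ST-HSC) sorted from mouse bone marrow, a small set of cells carried transcripts of Dntt and Ighm, genes of the lymphoid lineage. A cell was placed in this set when its summed count of the 2 transcripts reached at least 3 molecules, and 209 of 4340 usable ST-HSC did so, out of 5579 usable cells in all libraries. They are called Dntt/Ighm cells here. There were 136 in mouse 1, which is 5.17% of its ST-HSC (exact 95% binomial interval 4.35 to 6.08%), and 73 in mouse 2, or 4.28% (3.37 to 5.35%). These intervals cover counting error only.

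The study sorted long-term (LT) and short-term HSC from 2 male mice aged 14 weeks and profiled single cells with 10x Chromium 3' v3 chemistry, in which each captured RNA molecule carries a unique molecular identifier (UMI). Both animals were of the strain Tie2-bG-Micm x RosaYFP, whose name gives a Tie2 construct, Tie2 being a gene active in endothelium and blood stem cells, and a YFP reporter at the Rosa locus. No treatment is named in the labels, and there is no animal without these alleles. Both gates took lineage-negative cells with Kit and Sca-1 but no CD48 on the surface, and ST-HSC were those that also lacked CD150.

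The comparison made here asks how the Dntt/Ighm cells differ from other ST-HSC of the same mouse. The reference was drawn from cells with 0 UMIs of both genes, up to 5 for each Dntt/Ighm cell, matched on total UMIs within the library. This gave 680 reference cells in mouse 1 and 365 in mouse 2. The median cell held 10100.5 UMIs in the Dntt/Ighm set and 10089.5 in the reference of mouse 1, and 7855 and 7856 in mouse 2. The median cell held fewer genes in the Dntt/Ighm set, 3253.5 against 3293.5 in mouse 1 and 2690 against 2754 in mouse 2. Both sides come from the same 2 animals, and p-values therefore measure the spread between 2 libraries per side.

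Dntt encodes terminal deoxynucleotidyl transferase, the enzyme that adds untemplated bases at the joints of rearranging antigen receptor genes, and is among the first lymphoid genes switched on in marrow progenitors. Ighm encodes the constant region of the IgM heavy chain, and its locus gives sterile transcripts before any rearrangement. Progenitors with such transcripts are known as lymphoid primed: they still lack the commitment factors of B or T cells, and they usually carry the cytokine receptor Flt3.

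Dntt lies at chr19:41029275-41059525 on the plus strand and Ighm at chr12:113418558-113422730 on the minus strand (GRCm38). The stretches that lie 250 to 71 bases before the RefSeq start of Dntt, Wfdc17 and Ccr9 are shown because Dntt helped to choose the cells and the other two rose with it. They are at chr19:41029025-41029204, chr11:83703806-83703985 and chr9:123766961-123767140 (GRCm38.p6, plus strand), and none overlaps an annotated exon. They were searched on both strands for CAGGTG (E-box of the E2A type), TGGGAA (Ikaros core), GAGGAA (PU.1 core) and TGTGGT (Runx core). No matches overlapped, and capitals mark a match.
Dntt: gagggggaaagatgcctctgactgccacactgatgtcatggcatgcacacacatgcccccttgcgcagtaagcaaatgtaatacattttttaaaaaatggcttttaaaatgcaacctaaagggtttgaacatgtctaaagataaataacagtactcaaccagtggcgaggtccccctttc
Wfdc17: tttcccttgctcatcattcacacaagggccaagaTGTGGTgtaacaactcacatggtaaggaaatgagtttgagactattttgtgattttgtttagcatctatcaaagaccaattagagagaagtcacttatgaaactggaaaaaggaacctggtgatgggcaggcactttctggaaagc
Ccr9: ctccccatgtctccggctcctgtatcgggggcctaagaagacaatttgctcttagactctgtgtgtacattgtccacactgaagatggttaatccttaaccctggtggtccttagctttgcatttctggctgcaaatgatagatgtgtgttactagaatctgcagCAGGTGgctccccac
The stretch before Wfdc17 held the Runx core 216 bases before the start, and the one before Ccr9 held the E-box 85 bases before it, while the Dntt stretch held none of them. Of 32851 mouse promoter stretches of the same 180 bases, 13.04% held the E-box, 16.3% the Ikaros core, 17.2% the PU.1 core and 10.4% the Runx core. These matches describe letters only.

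Most Dntt/Ighm cells were chosen by Ighm. Ighm alone was found in 110 of the 209, both genes in 94 and Dntt alone in 5. Of the 209, 85 held exactly 3 UMIs, 51 held 4 and 73 held 5 or more, up to 58 in a cell of mouse 1 and 17 in mouse 2. Just outside the threshold, 164 cells had 2 UMIs and 408 had 1. In LT-HSC of mouse 2, 1 of 1217 cells reached the threshold, with 6 Ighm UMIs and no Dntt. LT-HSC of mouse 1 gave 22 usable cells, and 0 of them held a UMI of either gene, which allows a share of cells with a UMI of up to 13.6%.

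Cells chosen on one transcript were enriched for the other, although most cells with Ighm held no Dntt. Ighm was found in 40 of 46 cells with at least 2 Dntt UMIs in mouse 1 and in 23 of 31 in mouse 2. Dntt was found in 38 of 112 cells with at least 3 Ighm UMIs (33.9%) in mouse 1 and in 19 of 55 (34.5%) in mouse 2, against 1.96% and 1.45% of the matched cells. In cells with at least 2 Dntt UMIs, Ighm stood at 236.5 CPM (UMI counts scaled to 1e6 per sum) in mouse 1 against 28.8 CPM in depth-matched cells without Dntt. In mouse 2 the same values were 217 and 24.96 CPM, so Ighm was 8.21-fold and 8.71-fold higher in the 2 mice. In cells with at least 3 Ighm UMIs, Dntt stood at 156 CPM in mouse 1 and 121 CPM in mouse 2, against 1.77 and 2.60 CPM in cells without Ighm. In mouse 1, 52 of those 196 Dntt UMIs came from 1 cell, which is also 1 of the 15 cells set apart below. These values include such cells and were not repeated without them. The exact Poisson intervals, which cover counting error only, did not overlap on any of these comparisons. With 2 libraries a side no exact test can reach a p under 0.05, and none was run.

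The label of these cells as lymphoid primed was checked against marker lists. Of 20 committed B cell genes, Ms4a1, Pax5, Igll1 and Igkc, among others, had 0 UMIs in the Dntt/Ighm cells of both mice, and also in the reference. In all, 7 of the 20 were detected in Dntt/Ighm cells of mouse 1 and 4 in mouse 2, against 6 and 7 in the reference. Ebf1, Vpreb1 and Cd79b were detected in the Dntt/Ighm cells and in the reference of both mice. Cd22, Blk and Jchain were detected in the Dntt/Ighm cells of mouse 1 only, while Cd22 and Jchain were detected in both references. Cd79a was at 0 in the Dntt/Ighm cells of both mice and was detected in both references. Only Cd79b had enough counts for the test, and it did not pass. Ighd, the IgD heavy chain gene next to Ighm, was detected in Dntt/Ighm cells of both mice and at 0 in both references. The reference was chosen to hold 0 Ighm UMIs, so this contrast may not be independent of the rule. The summed level of that list was 52.2 CPM in mouse 1 and 66.5 in mouse 2, against 41.8 and 49.2 CPM in reference cells. Il7r, Rag1 and Rag2, the receptor and recombinase genes of lymphoid commitment, were too low for the test. The markers given with the cells (Wfdc17, Gria2, Ccr9 and 1700003C15Rik) were all present, at levels described below.

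A minority of the cells carried genes of other lineages, and the label is in doubt for them, though not equally. By a rule chosen after the data had been seen, 15 of the 209 cells had at least 5 UMIs over 13 granulocyte, monocyte, dendritic, T and B cell genes or at least 20 UMIs of the lysozyme gene Lyz2. They were 4 of 136 in mouse 1 and 11 of 73 in mouse 2, and they held 6.35% and 22.8% of the UMIs of the set. Among reference cells, 3 met the same rule. Of the 15, 13 had Ighm and no Dntt.
Their contents differed from cell to cell. The largest, in mouse 1, held 60461 UMIs with 244 of Elane, 160 of Mpo and 192 of Ctsg, all neutrophil granule genes. A cell of mouse 2 held 681 UMIs of S100a8 and 600 of S100a9, and another held 13 of the T cell receptor gene Trbc2. One cell of mouse 1 held 166 UMIs of Ly6d, a gene that is also on the early lymphoid list used below. Another cell of mouse 1, with 52 Dntt, 6 Ighm and 9 Flt3 UMIs, met the rule through 4 UMIs of Mpo and 2 of Ctsg. At least 20 Lyz2 UMIs were found in 7 of the 15. Scrublet, a doublet caller, marked 2 cells of mouse 1 and 9 of mouse 2, and 0 of them were Dntt/Ighm cells. The source of Ighm in these 15 cells was not tested. Each result below is given with all 209 cells and, where it matters, with the 194 left.

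Counts were summed per library and tested with edgeR's quasi-likelihood test, leaving out Dntt and Ighm. Of 10457 genes tested, 112 (1.07%) were higher in Dntt/Ighm cells and 31 (0.296%) were lower at an adjusted p under 0.05. All 143 (1.37%) had the same direction in both mice. With the other-lineage cells left out of both sets, 67 genes (0.649% of 10328) were higher and 23 (0.223%) lower, 0.871% in all. Of these, 58 and 22 were also called with all cells. With the mouse as a replicate block, 470 genes (4.49%) were higher and 246 (2.35%) lower, 6.85% in all, and these included all 112 and all 31. DESeq2 called 108 higher (0.859% of 12567) and 23 lower (0.183%), 1.04% in all. The calls rested on having both reference libraries. Without the reference of mouse 1, 0 genes were higher and 2 lower (530 genes at an unadjusted p under 0.05), and without that of mouse 2, 0 and 0 (461 at an unadjusted p under 0.05). Without the Dntt/Ighm sum of mouse 1 there were 279 higher and 99 lower, and without that of mouse 2, 206 and 113. In such fits the lone library is assumed to vary like the others.

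**Figure D1:**
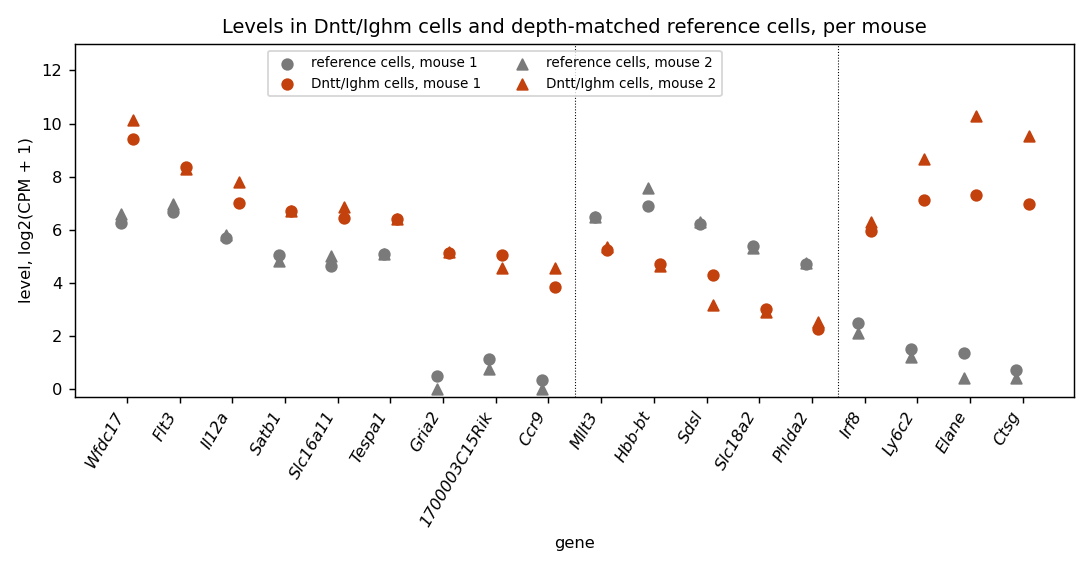
Level of 18 genes on the log2(CPM + 1) scale in the Dntt/Ighm cells (orange) and in depth-matched reference cells (grey) of mouse 1 (circles) and mouse 2 (triangles); each point is 1 library sum. The first block holds genes that were higher, the middle block genes that were lower, and the last block genes whose UMIs came almost wholly from the 15 other-lineage cells; in every gene both orange points lie on the same side of both grey points.

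The given markers were chosen with earlier results of these data known, so their values are a description. Wfdc17, a small secreted protein of the whey acidic protein family that is found in myeloid and early progenitor cells, stood at 678 CPM in mouse 1 and 1127 CPM in mouse 2, against 74.9 and 95.5 CPM in the reference. It was the most abundant of the markers, with UMIs in 157 of the 209 cells. Gria2, a glutamate receptor subunit otherwise known from neurons, stood at 33.5 and 34.9 CPM, with 75 UMIs in 24 cells. The reference held 3 Gria2 UMIs in all, a ratio of 121 (95% counting interval 39.9 to 600). Ccr9, the receptor for the chemokine that draws progenitors to the thymus, stood at 13.3 and 22.2 CPM, with 35 UMIs in 14 cells. Its reference held 2 UMIs, a ratio of 84.7 (21.8 to 727). A single cell of mouse 1 held 11 of the 35 UMIs, and these intervals treat each UMI as independent. The transcript 1700003C15Rik stood at 31.6 and 22.2 CPM against 1.15 and 0.648 CPM. All 4 lay higher in both mice, and Gria2 and Ccr9 were close to absent from cells with 0 UMIs of both rule genes. In mouse 1, cells with 2 UMIs, just outside the set, held 13.1 CPM of Gria2 and 7.37 CPM of Ccr9. Those with 3 to 4 held 13.4 and 7.24 CPM. Mouse 2 differed, with 0 and 4.26 CPM in cells with 2 UMIs against 31.2 and 24.0 CPM in those with 3 to 4.

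Flt3, the receptor that marks multipotent and lymphoid progenitors, stood at 327 CPM in mouse 1 and 307 in mouse 2, against 99.7 and 124 CPM in reference cells. The groups did not overlap, and the log2 fold change was 1.51 (SE 0.17, adjusted p = 0.00404, edgeR). Flt3 UMIs were found in 190 of the 209 cells, and in 414 of 680 and 214 of 365 reference cells. Reference cells matched on Flt3 UMIs as well as on depth gave 88 genes higher (0.865%) and 17 lower (0.167%), 1.03% in all, and 77 and 16 of these were also called with the depth-matched reference. Satb1, Tespa1 and Il12a were among those that passed with both references. That match narrowed the difference in Flt3 and did not remove it, at 328 against 233 CPM in mouse 1 and 308 against 259 CPM in mouse 2.

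Of 18 early lymphoid genes, 11 were tested, and 6 rose and 0 fell, against 1.07% higher over all genes tested. The 6 were Ccr9, Satb1, Il12a, Notch1, Tespa1 and Arpp21, and the same number passed without the other-lineage cells. Ccr9 is a marker given with the cells, so its place in this count was known beforehand. The list median was 1.07 on the log2 scale, against 0.00 over all genes tested. Satb1, a chromatin organiser needed for early lymphoid development, stood at 104 and 103 CPM against 31.6 and 27.2 CPM, a log2 fold change of 1.80 (SE 0.17, adjusted p = 0.00155, edgeR). Tespa1, a component of T cell receptor signalling, stood at 83.5 and 84.0 CPM against 32.8 and 33.0 CPM. Il12a, a subunit of interleukin-12 and interleukin-35, stood at 126 and 223 CPM against 49.7 and 54.4 CPM, with more spread between the mice than Satb1 or Tespa1. Notch1, the receptor whose signal commits cells to the T lineage, was nearly the same in the 2 mice, at 56.9 and 53.9 CPM against 26.2 and 27.2 CPM (log2 fold change 1.07, SE 0.18, adjusted p = 0.0252, edgeR). It did not pass against the Flt3-matched reference (adjusted p = 0.0583, edgeR).

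Of 29 lymphoid transcription factors, 21 were tested and 2 rose, Irf8 and Satb1, with a list median of 0.27. With the mouse as a replicate block 8 of the 21 rose, against 4.49% of all genes tested. Ikzf1 and Tcf3, which act across the lymphoid lineage, did not pass without the block. Ikzf1 (Ikaros) stood at 127 and 87.1 CPM against 87.0 and 82.2 CPM, and Tcf3, which encodes E2A, at 70.2 and 68.1 CPM against 69.1 and 76.7 CPM. Irf8 belongs to the cells of other lineages: 92.4% of its UMIs lay in the 15, and its log2 fold change went from 4.01 (SE 0.26) to 0.44 (SE 0.53, adjusted p = 0.917, edgeR) without them.

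Genes of multipotent progenitors also rose. Of 17 tested, 9 rose and 0 fell, with a median of 1.35. Wfdc17, counted among the 9, is a marker given with the cells. Without the other-lineage cells 9 passed as well, with Cd33 in place of Lgals1, and the median was 1.1. With the replicate block 15 rose. The share higher among all genes tested was 1.07%, and 4.49% with the block. Beside Flt3, Wfdc17 and Tespa1 they included Slc16a11, a monocarboxylate transporter family member, at 85.4 and 116 CPM against 23.7 and 31.4 CPM (log2 fold change 1.86, SE 0.21, adjusted p = 0.0042, edgeR). Emb (embigin, a partner of monocarboxylate transporters) stood at 317 and 395 CPM against 143 and 133 CPM. Ccl3, an inflammatory chemokine, stood at 71.5 and 93.5 CPM against 28.1 and 35.9 CPM, and it did not pass against the Flt3-matched reference (adjusted p = 0.285, edgeR). Cd52 and Plac8 were higher by 1.77 and 1.33 on the log2 scale with all cells and by 1.28 and 0.68 without the 15, which held 36.8% and 38.8% of their UMIs. Lgals1 lost its call, at a log2 fold change of 1.67 with all cells and -0.12 without.

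Ddx4 and Ighv1-77 were chosen after their values were seen. Ddx4, an RNA helicase known from germ cells, stood at 95.5 and 90.3 CPM against 22.9 and 16.8 CPM, with UMIs in 116 cells (log2 fold change 2.19, SE 0.20, adjusted p = 0.00122, edgeR). Ifi27l2a, an interferon-inducible gene, stood at 89.2 and 160 CPM against 15.5 and 20.1 CPM, while the other 20 tested genes of the interferon response list did not pass and the list median was -0.03. With the replicate block 1 gene of that list rose and 2 fell. Ighv1-77, a heavy chain variable gene of a family with near-identical members, had 28 UMIs in 18 cells against 4 in the reference.

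Some of the higher genes lay beside each other in the order of tested genes along the chromosome. Of the 112 higher genes, 15 (13.4%) had a neighbouring tested gene that was also higher, against 2.09% of all 10448 genes with coordinates. Without the other-lineage cells it was 11 of 67 (16.4%) against 1.23%. Among the 31 lower genes it was 0. The pairs were Wfdc17 and Wfdc18 on chromosome 11, Ccr9 and Lztfl1 on chromosome 9, BC035044 with Gm44067 and Clec2i on chromosome 6, and 1700003C15Rik with Gm32554, Gm10482 and Sema3d on chromosome 5, and, with all cells only, F13a1 with Ly86 and H2afy with Tifab, both on chromosome 13. Wfdc18 stood at 93.7 and 151 CPM against 12.7 and 24.6 CPM, and it starts 2.7 kb beyond the end of Wfdc17. The neighbours on chromosome 5 were 507 to 928 kb apart, and F13a1 and Ly86 295 kb. Lztfl1 stood at 163 and 152 CPM against 61.1 and 64.8 CPM. The Ccr9 and Lztfl1 gene models overlap, as do those of BC035044 and Clec2i, and where strand was not used in counting their reads cannot be told apart.

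The lower genes included genes of the stem cell state. Of 29 HSC-enriched genes, 25 were tested, and 0 rose and 7 fell: Procr, Mllt3, Meg3, Pdzk1ip1, Esam, Socs2 and Trim47. The list median was -0.90, and 24 of the 25 log2 fold changes were below 0. With the replicate block 18 fell. Of all genes tested, 0.296% were lower, and 2.35% with the block. Without the other-lineage cells 4 passed (Mllt3, Apoe, Socs2 and Trim47), with a median of -0.81. Mllt3, a chromatin reader known to maintain HSC, stood at 36.1 and 39.6 CPM in Dntt/Ighm cells against 86.9 and 86.8 CPM, a log2 fold change of -1.22 (SE 0.17, adjusted p = 0.0103, edgeR). Its level in LT-HSC of mouse 2 was 257 CPM. Socs2, an inhibitor of cytokine signalling, had 2 UMIs in all Dntt/Ighm cells against 161 in the reference. Procr (EPCR), a surface marker of HSC, stood at 51.9 and 42.8 CPM against 90.5 and 104 CPM. Hlf and Mecom, transcription factors of HSC, did not pass, at 711 and 540 CPM against 672 and 644 CPM for Hlf and 58.2 and 60.2 CPM against 86.4 and 85.5 CPM for Mecom.

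Other genes that fell lay outside that list. Slc18a2, the vesicular monoamine transporter, stood at 6.96 and 6.34 CPM against 41.0 and 38.5 CPM, a log2 fold change of -2.55 (SE 0.28, adjusted p = 0.00376, edgeR). Phlda2, an imprinted growth regulator, stood at 3.80 and 4.75 CPM against 24.7 and 25.9 CPM. Sdsl, a serine dehydratase family member, stood at 18.4 and 7.92 CPM against 73.3 and 76.7 CPM, and Cavin3, a caveola protein, at 8.86 and 4.75 CPM against 36.3 and 41.4 CPM. Tcf15, a transcription factor of quiescent HSC, stood at 3.80 and 3.17 CPM against 18.1 and 22.7 CPM. Csgalnact1, Dach1 and 2700038G22Rik fell as well, by 1.63, 1.58 and 1.86 on the log2 scale. In LT-HSC of mouse 2 the same genes stood at 71.5 CPM for Slc18a2, 108 CPM for Sdsl and 45.5 CPM for Tcf15. Bgn fell by 2.03 with all cells, and without the 15 its log2 fold change was -1.86 (SE 0.40) and did not pass (adjusted p = 0.0665, edgeR). Esam, of the HSC-enriched list, went likewise from -1.76 to -1.59 (SE 0.33, adjusted p = 0.0538, edgeR).

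Of 12 tested genes of megakaryocytes and red cells, 1 fell and 1 rose, with a median of -0.81. With the replicate block 8 fell and 1 rose, against 2.35% lower and 4.49% higher over all genes tested. Pf4 (platelet factor 4) stood at 38.6 and 19.0 CPM against 104 and 84.8 CPM, a log2 fold change of -1.58 (SE 0.26, adjusted p = 0.019, edgeR). Plek, the gene that rose, encodes pleckstrin, which is present in white cells as well as platelets, and stood at 56.9 and 68.1 CPM against 30.0 and 33.0 CPM. Hbb-bt, a beta globin gene that shares sequence with other globins, stood at 25.3 and 23.8 CPM against 117 and 189 CPM. Camp and Ngp, neutrophil granule genes, were called lower, but 99.1% and 99.3% of their reference UMIs came from 3 reference cells.

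**Figure D2:**
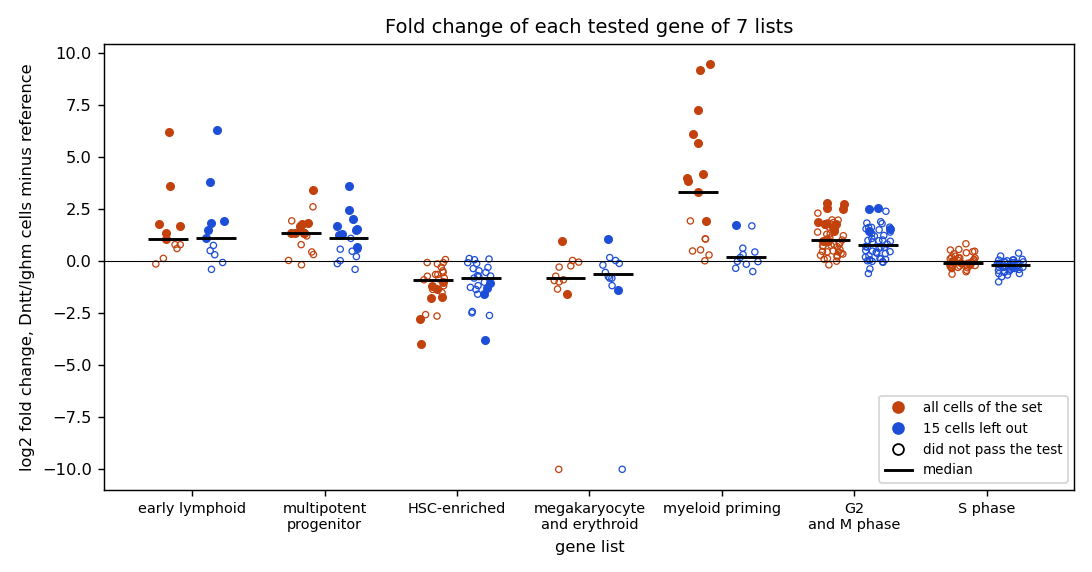
Log2 fold change (Dntt/Ighm cells minus reference) of each tested gene of 7 lists, with all 209 cells (orange) and with the 15 other-lineage cells left out (blue); filled points passed the test and black bars are medians. The early lymphoid, multipotent progenitor and HSC-enriched medians stay on the same side of 0 without the 15 cells, while the myeloid median goes from 3.31 to 0.18, over 17 and 11 tested genes.

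Myeloid genes were high through few cells. Of 20 genes of the myeloid priming list, 17 were tested, and 10 rose and 0 fell, with a median of 3.31. The share higher over all genes was 1.07%. Without the other-lineage cells 11 were tested and 1 rose, Cebpa, with a median of 0.18. Of the 15 genes with the largest rise, 13 had over 80% of their UMIs in the 15 cells, and several of them were also used to choose those cells. Elane stood at 157 CPM in mouse 1 and 1249 in mouse 2 against 1.53 and 0.324 CPM, and 99.6% of its UMIs came from the 15. Ctsg stood at 125 and 730 CPM, Mpo at 108 and 930 CPM and Ly6c2, a monocyte surface antigen, at 138 and 404 CPM, with 99.7%, 98.7% and 99.8% in the 15. F13a1, a monocyte gene, held 138 UMIs in 7 cells against 1 in the reference, and Ccr2, the monocyte chemokine receptor, 88 in 9 cells against 3. Ly86 held 49 UMIs in 10 cells against 0, so it was at least 79.1-fold higher (bound at 3 counts over the reference). Lgals3, Fn1, Ms4a3, Hp, Mpeg1, Pld4 and Klf4 had between 83.3 and 99.5% of their UMIs in the 15. Cebpa, the factor that directs progenitors to the myeloid lineage, stood at 36.7 and 39.6 CPM against 9.80 and 9.71 CPM. Its log2 fold change was 1.95 (SE 0.23) with all cells and 1.73 (SE 0.27, adjusted p = 0.0105, edgeR) without the 15, which held 24.1% of its UMIs.

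**Figure D3:**
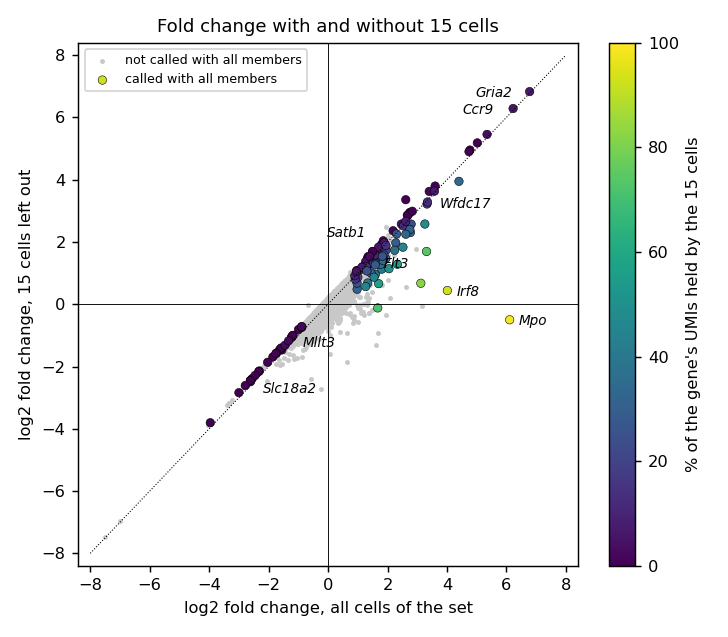
Log2 fold change of each gene with all 209 Dntt/Ighm cells (x axis) and with the 15 other-lineage cells left out of both sets (y axis); coloured points were called with all cells, and the colour is the share of the gene's UMIs that the 15 cells held. Wfdc17, Gria2, Ccr9 and Flt3 lie near the diagonal, Irf8 and Mpo lie near 0 on the y axis, and the 24 higher and 2 lower genes that fell below the count filter without the 15 are not drawn.

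Some genes of the G2 and M phases of the cell cycle rose. Of 49 tested, 13 rose and 0 fell, with a median of 1.02, and with the replicate block 32 rose. Among all genes tested 1.07% were higher, and 4.49% with the block. Of 42 tested S phase genes, 0 passed, with a median of -0.08, and with the replicate block 1 rose and 1 fell. The difference between the lists was not tested. Cenpf, a kinetochore protein, stood at 128 and 53.9 CPM against 21.1 and 10.4 CPM (log2 fold change 2.53, SE 0.38, adjusted p = 0.0122, edgeR). Ccnb2 (cyclin B2) stood at 91.8 and 63.4 CPM against 15.4 and 5.18 CPM, and Birc5 (survivin) at 87.3 and 76.1 CPM against 29.8 and 24.3 CPM. Few cells held these genes, with Cenpf UMIs in 27 of the 209, Ccnb2 in 25 and Birc5 in 24. Without the other-lineage cells 4 of 48 passed (Cenpf, Ccnb2, Cdc20 and Cenpa) with a median of 0.76, and Birc5 stood at 0.96 (adjusted p = 0.298, edgeR). Cdc20, an activator of the anaphase complex, stood at 141 and 73.4 CPM in cells with 5 or more Dntt and Ighm UMIs. It stood at 19.7 and 12.01 CPM in those with 3 to 4, against 14.1 and 13.5 CPM in cells with 0. Cells with 2 UMIs, outside the set, held 52.4 and 40.5 CPM, so the levels took no steady order.

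Among immediate early genes Btg2 and Klf4 rose of 15 tested, and 8 rose with the replicate block. For all genes tested the shares were 1.07% and 4.49%. Btg2, an antiproliferative factor, stood at 87.3 and 53.9 CPM against 26.2 and 23.0 CPM. Of 9 MHC class II genes, 0 passed with all cells and H2-Ob passed without the 15. Of 7 Ccl and Wfdc genes, Ccl3 and Wfdc17 rose, and of 4 tested dendritic cell markers, Ccr9 and Flt3. Wfdc17 and Ccr9 are markers given with the cells, here and in the other lists that hold them. With the replicate block 5 Ccl and Wfdc genes rose and 1 fell, and 1 MHC class II gene rose. Of 17 cytokine and chemokine receptor genes, Flt3, Ccr9 and Ccr2 rose, and with the replicate block 5 rose and 2 fell. Cytosolic ribosomal protein genes (77 tested) and mitochondrially encoded genes (13 tested) had 0 calls and medians of 0.01 and -0.06, and with the replicate block 1 ribosomal gene rose and 1 fell. Neutrophil genes summed to 282 and 4219 CPM in Dntt/Ighm cells against 656 and 3204 CPM in reference cells, most of it in single cells on both sides. T and NK cell genes summed to 98.7 and 290.2 CPM against 101 and 120.4 CPM, and without the 1 cell with the most such UMIs (69 of 192) the second value was 186 CPM. Dendritic cell genes, a list that holds Flt3 and Ccr9, summed to 794 and 766 CPM against 436 and 456 CPM. Without the cell with the most such UMIs in each sum they were 719 and 692 CPM against 433 and 450 CPM. Mast cell and basophil genes summed to 4.46 and 7.56 CPM against 5.06 and 7.44 CPM. Macrophage genes summed to 9.56 and 10.6 CPM against 11.8 and 11.97 CPM. The part of such cells in the genes above was not tested beyond leaving out the 15.

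Genes picked in one mouse were then read in the other. Among genes with a mean of at least 20 CPM, 74 were at least 2-fold higher in the Dntt/Ighm cells of mouse 1, and 74 (100%) of them were also higher in mouse 2, against 51.4% of all 6266 genes at that level. Of 29 that were at least 2-fold lower in mouse 1, 28 (96.6%) were lower in mouse 2, against 48.6%. In the other direction, 146 of 158 higher genes of mouse 2 (92.4%, against 50.8%) and 71 of 79 lower ones (89.9%, against 49.2%) had the same sign in mouse 1. The mouse 2 picks were more numerous, and this set holds fewer cells.

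The levels of these genes also were read by the number of Dntt and Ighm UMIs, including cells with 1 or 2, which took no part in the comparison above. Wfdc17 stood at 80.5, 206 and 454 CPM in cells of mouse 1 with 0, 1 and 2 UMIs, then at 541 CPM with 3 to 4 and 909 CPM with 5 or more. In mouse 2 the same steps were 118, 437, 430, 1013 and 1178 CPM. Flt3 went from 107 CPM with 0 UMIs to 199, 234, 299.96 and 376 CPM in mouse 1, while in mouse 2 it went from 134 to 234, 283, 252 and 363 CPM. Mllt3 went from 101 CPM to 69.7, 55.7, 45.5 and 21.6 CPM in mouse 1 and from 97.2 to 69.2, 51.1, 40.8 and 32.6 CPM in mouse 2. Sdsl went from 69.5 CPM to 40.3, 25.4, 25.9 and 6.63 CPM in mouse 1. The cells just outside the threshold, with 2 UMIs, stood between those with 0 and those with 5 or more for these genes. Elane took no such order: cells of mouse 1 with 1 and 2 UMIs held 194 and 820 CPM and those with 5 or more held 406 CPM, with little in those with 0 or with 3 to 4. In mouse 2 Elane stood at 0.705, 1.85 and 0 CPM with 0, 1 and 2 UMIs and at 1640.2 and 428 CPM in the bins from 3 up.

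**Figure D4:**
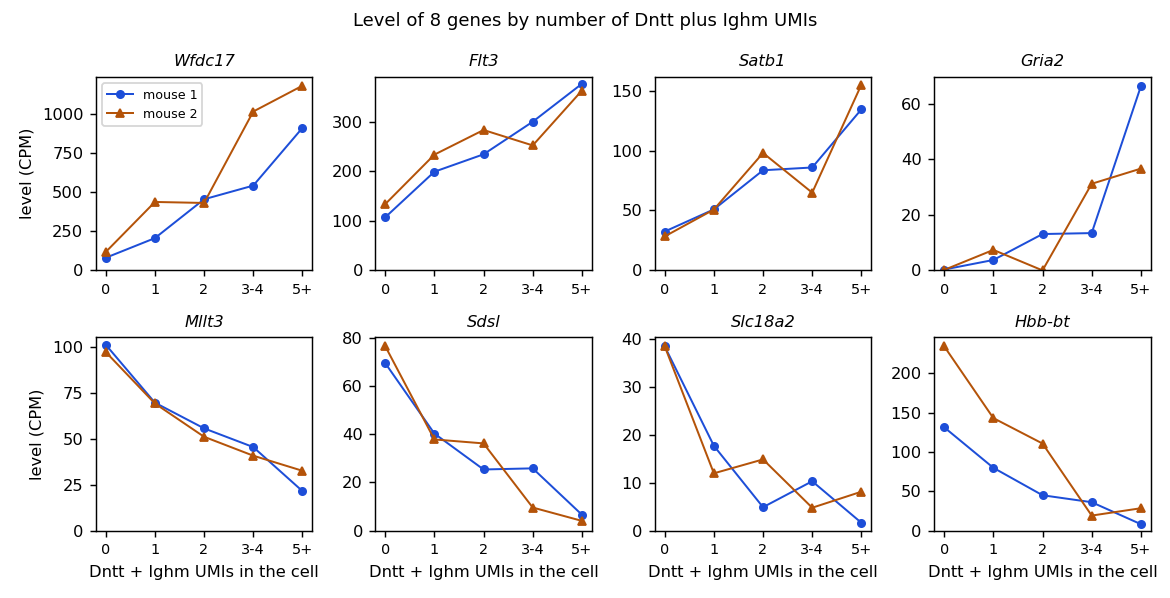
Level (CPM) of 8 genes in all usable ST-HSC by the number of Dntt plus Ighm UMIs in the cell, for mouse 1 (circles) and mouse 2 (triangles); each point is the sum over the cells of 1 bin in 1 library, and the set itself begins at 3. Wfdc17 goes from 80.5 to 909 CPM in mouse 1, and Mllt3 goes from 101 to 21.6 CPM.

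The last comparison asked whether cells chosen through Dntt and cells chosen through Ighm were alike. The 99 cells with a Dntt UMI were set against the 110 with Ighm only. Of 6706 genes tested, 0 (0.00%) were higher and 18 (0.268%) lower in the Dntt-holding cells, with 320 at an unadjusted p under 0.05, and DESeq2 gave 0 and 13. The 18 included Ly6c2, Ctsg, Elane, Ccr2, Lyz2 and Mpo. With the mouse as a replicate block the counts were 20 higher and 97 lower. Without the Dntt-holding sum of mouse 1 they were 2 and 53, without that of mouse 2 they were 21 and 76, and without the Ighm-only sums of mouse 1 and mouse 2 they were 26 and 151 and 9 and 29. Other-lineage cells made up 4.05% of the Ighm-only cells in mouse 1 and 27.8% in mouse 2, against 1.61% and 2.70% of the Dntt-holding ones. With them left out, other genes passed: 8 were higher (0.120% of 6692) and 0 lower (0.00%), with 210 at an unadjusted p under 0.05. The 8 were Cenpf, Cenpe, Cdc20, Ccnb1, Ccnb2, Cks2, Birc5 and Ube2c, all genes of the G2 and M phases. The cells left out, 13 Ighm-only and 2 Dntt-holding, themselves held such RNA, for Birc5 39.2% of the UMIs of the set. Leaving them out took Birc5 in Ighm-only cells of mouse 2 from 122 CPM to 0. With all cells the fitted log2 fold changes of the 8 were above 0 without passing. They ran from 0.15 for Ube2c to 2.28 for Cenpf. Cenpf, Cenpe, Cdc20 and Ccnb1 were then higher in Dntt-holding cells of both mice. Ube2c, Birc5, Ccnb2 and Cks2 were higher in mouse 1 but lower in mouse 2. Their mouse 2 levels were 25.5, 35.1, 57.4 and 153 CPM against 52.6, 122, 72.3 and 214 CPM in Ighm-only cells.

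Cenpf stood at 239 CPM in Dntt-holding cells of mouse 1 and 80.8 CPM in mouse 2, against 13.8 and 26.8 CPM in Ighm-only cells, a log2 fold change of 3.36 (SE 0.48, adjusted p = 0.00663, edgeR). The Dntt-holding cells were also deeper, with a median of 10290.5 UMIs against 9805 in mouse 1 and 8340 against 7507.5 in mouse 2, all cells included, and the part of depth in this difference was not tested. Wfdc17, Flt3 and Gria2 did not pass in this comparison. Wfdc17 stood at 727 and 1347 CPM in Dntt-holding cells and 769 and 1557 CPM in Ighm-only cells. With all cells it took the other direction, at 710 and 1286 CPM against 683 and 1012 CPM. Flt3 stood at 397 and 401 CPM in Dntt-holding cells and 315.5 and 376 CPM in Ighm-only cells. Gria2 was higher in Dntt-holding cells of mouse 1 (47.3 against 27.6 CPM) and lower in those of mouse 2 (20.2 against 59.0 CPM), so the groups overlapped. Satb1 stood at 148 and 165 CPM in Dntt-holding and 68.9 and 75.2 CPM in Ighm-only cells, a log2 fold change of 1.13 (SE 0.26) that did not pass (adjusted p = 0.189, edgeR) although the groups did not overlap. Slc16a11 stood apart in the same way, at 119 and 199 CPM against 68.9 and 69.8 CPM (adjusted p = 0.44, edgeR).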

How the data were processed

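The authors deposited unnormalized UMI counts for each barcode. Cell Ranger 3.1.0 and mm10 are named in the submitters' processing notes, and the matrix header gives software version 3.0.2. The sources used here do not give how barcodes were chosen or whether counting used strand. Barcodes with at least 1000 genes, 2000 UMIs and at most 10% mitochondrial UMIs were kept. The ST-HSC libraries gave 2633 and 1707 cells, holding 27870823 and 13566531 UMIs. The libraries of the 2 ST-HSC samples shared 1 kept barcode. Doublets were not removed: Scrublet marked 0.0760% and 0.527% of ST-HSC, too few to show that it worked.

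Counts of Dntt/Ighm and reference cells were summed per library and tested with edgeR 4.0.16 (TMM, filterByExpr, no block), with Benjamini-Hochberg adjustment. CPM of the gene comparisons use TMM-scaled totals over tested genes, other CPM plain totals. DESeq2 1.42.0, other references, thresholds and filters were alternatives. Leaving out other-lineage cells was added after the data had been seen. Mouse numbers pair the sums, which come from the same animals (r = 0.301 between same-mouse deviations over 10457 genes). Code was tested on simulated data. Coordinates came from GENCODE vM21 (GRCm38) and promoters from RefSeq (GRCm38.p6).

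The cells, markers and 22 gene lists were chosen with earlier results of these data known. Genes named are the 15 with the largest change in each direction (adjusted p under 0.05, at least 20 CPM, same direction in both mice), the markers, Flt3, and up to 3 per list of smallest p with at least 10 CPM. Others were chosen after their values were seen.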

Additional observations from a re-analysis of the deposited data

Results flagged for a closer look

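One signal lay outside the comparison. In LT-HSC of mouse 2, 6 Ighm UMIs were counted, above the 3 that a count of 0 allows, and all were in 1 cell of 25186 UMIs. That cell had 0 Dntt UMIs and held 576 UMIs of Lyz2, 42 of Ly6c2, 19 of F13a1 and 18 of Ccr2, genes also held by some of the 15 other-lineage ST-HSC, and 0 UMIs of Slamf1, the gene for CD150.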

How the results depend on the processing

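The counts of called genes depended on the reference and on the threshold, while their genes overlapped. The 112 higher and 31 lower genes became 57 and 18 with 1 reference cell per Dntt/Ighm cell (52 and 17 of them shared). They became 187 and 40 with a threshold of 2 UMIs, and 219 and 60 with 5. Cells with at least 3 Ighm UMIs and 0 Dntt gave 65 and 12. Matching on Flt3 left 17 lower genes. Without a filter on low counts there were 311 and 162, and with the replicate block 470 and 246. Leaving out the other-lineage cells gave 67 higher genes, and doing so with the replicate block gave 358 and 233. These last settings, and the removal of cells with T, NK or neutrophil markers after matching (104 and 33), were chosen after the data had been seen. Leaving out 1 library sum gave from 0 to 279 higher and from 0 to 113 lower genes. The cause was not tested. Mpo, 1 of the genes by which other-lineage cells were found, had a log2 fold change of 6.11 with all cells. It stood at -0.29 when cells with markers of other types were left out, at -0.19 when T, NK and neutrophil cells were, at -0.50 without the other-lineage cells and at -0.49 with the replicate block as well, values whose SE (0.48 to 0.63) does not set them apart from 0.

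Between Dntt-holding and Ighm-only cells, 0 higher and 18 lower genes became 20 and 97 with the replicate block, 12 and 106 with no filter, 8 and 0 without the other-lineage cells and 30 and 4 without them under the replicate block. Leaving out 1 sum gave from 2 to 26 higher and from 29 to 151 lower genes. Lgals1 and Tyrobp, lower with all cells, stood at 0.29 (SE 0.28) and 0.10 (SE 0.33) without the other-lineage cells, and at 0.30 and 0.10 under the replicate block, not apart from 0. Choosing cells by 1 UMI, Ighm was 6.16-fold and 7.63-fold higher with Dntt, and Dntt 22.4-fold and 13.4-fold higher with Ighm. Genes picked at 1.5-fold, all cells included, kept their sign in 89.4% and 80.6% (higher) and 86.9% and 79.2% (lower) of cases. Of 47 named genes that passed, 47 passed with the replicate block, 41 with DESeq2, 35 with Flt3 matching and 27 without the other-lineage cells. In the Dntt/Ighm sums 3 UMIs were 1.91 CPM in mouse 1 and 4.53 CPM in mouse 2, which limits what could be seen of lower genes.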
